A study of Mus musculus with 2 samples.

Results

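Genes of cytotoxic lymphocytes, the natural killer (NK) cells and cytotoxic T cells, were examined in whole kidney RNA-seq. The 10 genes were taken by name: the granule proteins Gzma, Gzmb, Prf1 and Nkg7, the receptors Klrb1c, Ncr1 and Klrd1, the cytokine Ifng, and the transcription factors Tbx21 and Eomes. Of these, 6 had a row among the 20002 genes of the table used here. Gzmb, Klrd1, Ifng and Eomes had no row in it and are not analysed here.

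The study asked what loss of Regnase-2, an RNase that degrades mRNA, does in renal proximal tubules. The control group and the Reg-2 CKO group had 1 library each, and the differences given here have no replicate check and were not tested. C57BL/6J mice received AAV9 with shRNA against Regnase-2 by tail vein at 11 weeks of age, and the vector is described as preferentially reaching proximal tubules. The label names a conditional knockout, whereas the methods describe a knockdown. Controls are described as given AAV9 with empty vector in one place and control shRNA in another. Age at harvest is given as 14 weeks for the RNA-seq and as 16 weeks for the AAV9 experiments. Neither library is described as 1 mouse or a pool, and the tissue is called whole kidneys in the labels and left kidney in the methods.

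The deposited values were whole numbers that started at 35 for the control library and at 51 for CKO. They were read as sequencing reads plus a constant, an inference from the values, and 34 and 50 were subtracted. The control library then held 38851231 reads and the CKO library 43588721. CKO reads times 0.667, the median gene ratio between the libraries, are called scaled reads. Log2 ratios of CKO over control used a pseudocount of 1, and a gene counted as at least 2-fold higher or lower had a log2 ratio of at least 1 or at most -1 on that scale. Folds with intervals used no pseudocount, and 95% intervals cover counting error only.

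Zc3h12b, the Regnase-2 gene, had 47 control reads and 59 CKO reads, which is 39.3 scaled reads. Its fold was 0.837, with an interval of 0.561 to 1.26. A fold below 0.561 lies outside this interval, so no strong reduction of the targeted mRNA was seen in whole kidney, and a smaller one was not detectable. The target gene in whole kidney RNA therefore does not check the labels, and directions below refer to the library labelled CKO. The tissue label was checked on kidney markers. Lrp2, the proximal tubule endocytic receptor megalin, had 103389 and 82681 reads, and Umod, uromodulin of the thick ascending limb, had 90047 and 187056. Kidney transcripts were thus abundant in both libraries.

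Cytotoxic lymphocytes kill target cells by releasing granules at the contact site. Perforin opens the target membrane, and granzymes enter and cleave proteins inside. NK cells decide between killing and tolerance through activating and inhibitory receptors, and in kidney they form a small resident and recruited population beside T cells and macrophages.

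Bases upstream of the gene are shown for the pair of members that were at least 2-fold higher, Prf1 and Nkg7, and for the pair with a log2 ratio below 0, Gzma and Ncr1. The sequences are from RefSeq on build GRCm38.p6, written 5′ to 3′ on the strand of the gene, and each stops before the earlier of the gene starts in RefSeq and GENCODE M21. Prf1 is on the plus strand at chr10:61297586-61297750, Nkg7 on the plus strand at chr7:43436888-43437072, Gzma on the minus strand at chr13:113100982-113101231 and Ncr1 on the plus strand at chr7:4337465-4337714. Capitals mark matches to either of the 2 motifs searched, on both strands. These are a T-box core, GTGTGA or TCACAC, and a RUNX core, TGTGGT or ACCACA, and matches of one may overlap the other.
Prf1: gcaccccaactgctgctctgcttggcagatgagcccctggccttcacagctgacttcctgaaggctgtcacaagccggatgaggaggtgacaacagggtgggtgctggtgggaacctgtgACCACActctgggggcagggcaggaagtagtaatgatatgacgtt
Nkg7: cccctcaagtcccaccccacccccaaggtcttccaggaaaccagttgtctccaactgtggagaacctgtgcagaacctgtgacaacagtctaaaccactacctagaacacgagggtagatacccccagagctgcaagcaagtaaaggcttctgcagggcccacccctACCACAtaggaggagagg
Gzma: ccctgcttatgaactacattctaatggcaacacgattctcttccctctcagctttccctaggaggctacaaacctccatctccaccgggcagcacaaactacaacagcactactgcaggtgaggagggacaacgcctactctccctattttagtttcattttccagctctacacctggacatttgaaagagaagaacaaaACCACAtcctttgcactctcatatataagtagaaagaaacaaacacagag
Ncr1: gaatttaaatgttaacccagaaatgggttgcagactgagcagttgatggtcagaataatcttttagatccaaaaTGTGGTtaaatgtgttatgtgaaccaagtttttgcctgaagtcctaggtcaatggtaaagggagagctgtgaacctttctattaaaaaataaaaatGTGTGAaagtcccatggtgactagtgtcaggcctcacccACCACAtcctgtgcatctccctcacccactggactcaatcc

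The annotations differ in where some genes start. For Prf1, the sequence table counts upstream bases from 61297836, but the RefSeq gene begins at 61297751, so its window ends there and holds 165 bases. For Nkg7, RefSeq has 43437138 and GENCODE 43437073, so its window holds 185 bases. The windows of Gzma, Ncr1 and Tbx21 hold 250, and Klrb1c has none, since its RefSeq window lies inside the GENCODE gene.

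The RUNX core was found in the windows of 4 of 5 members, all but Tbx21, and the T-box core in that of Ncr1. Of 5047 genes with a full window of 250 bases, 12.5% held the RUNX core and 9.73% the T-box core. In windows of 165 bases the shares were 7.53% and 6.14%, and in windows of 185 bases 8.66% and 6.93%. The members with the RUNX core include those with ratios above and below 0. A match describes letters only and does not show binding.

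Among the granule genes, Prf1, which encodes the pore-forming protein perforin, had 10 control reads and 33 CKO reads, or 22 scaled reads. It was 2.20-fold higher in the CKO library, with an interval of 1.06 to 5.0. Nkg7, a granule membrane protein that promotes granule release, had 7 and 24 reads, or 16 scaled reads, a fold of 2.29 with an interval of 0.956 to 6.28. The interval excluded equal levels for Prf1 and included them for Nkg7, but with library totals made equal the Nkg7 interval was 1.28 to 8.40. With the values as deposited, the log2 ratios were 0.90 for Prf1 and 0.84 for Nkg7, both short of 2-fold.

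Gzma, the serine protease granzyme A, had 18 control reads and 14 CKO reads, or 9.33 scaled reads. Its fold was 0.519, with an interval of 0.239 to 1.10. Granzyme A and perforin are carried by the same granules, yet their estimates lay on opposite sides of 1, and the log2 ratio of Gzma was -0.88 but 0.29 with the values as deposited. Whether Gzma and Prf1 differ in their ratios was not tested.

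Of the receptors, Ncr1, which encodes the activating receptor NKp46 and is among the most NK-restricted genes, had 15 and 16 reads, or 10.7 scaled reads in the CKO library. Its fold was 0.711, with an interval of 0.329 to 1.54, and its log2 ratio of -0.46 became 0.42 with the values as deposited. Klrb1c, which encodes the NK1.1 antigen, had 5 and 10 reads, or 6.67 scaled reads, a fold of 1.33 with an interval of 0.415 to 4.97. No difference in either receptor was detectable at this depth under any of the 3 scalings. Klrb1c shares stretches with close relatives, and 1 other annotated gene on the same strand, Gm44511, overlaps it, so its reads are uncertain.

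Tbx21, which encodes T-bet, the transcription factor that drives the cytotoxic and interferon-gamma programme, had 7 and 13 reads, or 8.67 scaled reads. Its fold was 1.24, with an interval of 0.459 to 3.67. A difference in Tbx21 was likewise not detectable.

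**Figure D1:**
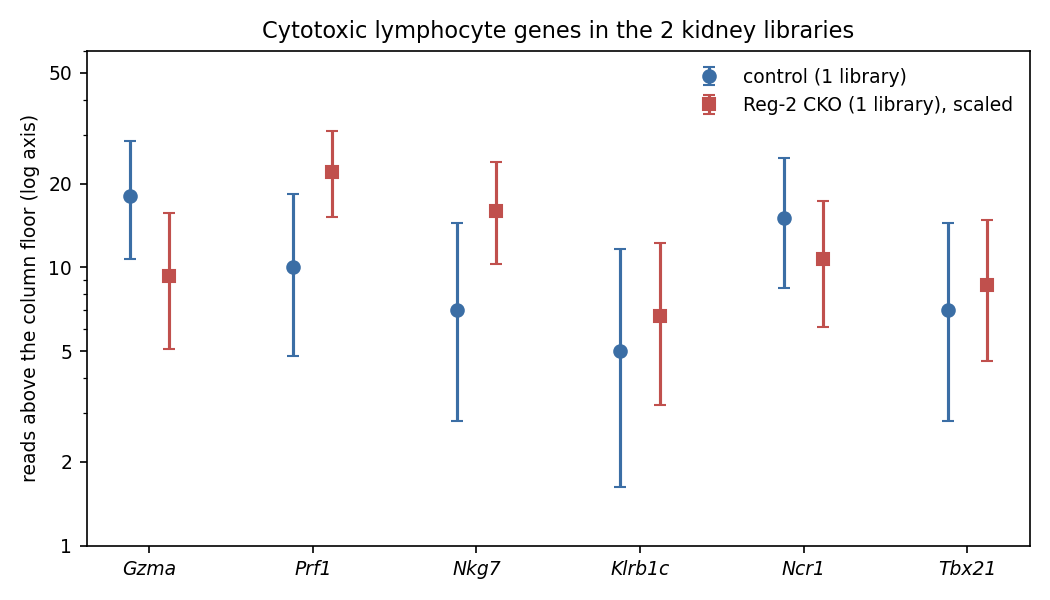
Reads above the column floor for the 6 members on a log axis, with the control library as blue circles, the scaled CKO library as red squares and bars giving 95% Poisson intervals for counting error. All values lie between 5 and 22 reads, and the intervals of the libraries overlap for each gene.

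Read together, 2 of the 6 members reached 2-fold higher in CKO and 0 reached 2-fold lower. As background, 13.4% of 17469 genes were that much higher and 5.35% that much lower, where a gene needed 10 or more scaled reads in either library, a filter that 4 of the 6 members passed. Low counts scatter more, and of 2053 genes with the members' range of 15 to 43 reads over both libraries, 20.8% were at least 2-fold higher and 11.4% lower. The members' count was read against these shares only, and no test of it was made. With the values as deposited, or with a pseudocount of 10, the count of members at least 2-fold higher was 0.

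The median log2 ratio of the 6 members was 0.31, taken like the list medians below over every gene with a row. The median of all genes with a row was 0. It was 0.022 for the genes that passed the filter and 0.17 for genes in the same range of reads. Summed, the members had 62 control reads and 110 CKO reads, or 73.3 scaled reads. The summed fold was 1.18, with an interval of 0.859 to 1.64, which includes equal levels. That depends on the scaling, since with library totals made equal, an alternative to this interval added after the data were seen, the summed fold was 1.58 with an interval of 1.15 to 2.20. Over all genes that passed, 2334 were at least 2-fold higher and 934 lower, and the split was 3870 to 437 with library totals made equal and 3574 to 131 with the values as deposited. In bulk tissue, fewer cells of a type and less RNA per cell cannot be told apart.

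The members lie near the bottom of the measured range. In the control library, 23.6% of genes had as many reads as Gzma or fewer, the highest such share among the members, and 11.2% as many as Klrb1c or fewer. In the CKO library Prf1 led with 22.4%, and Klrb1c was again lowest with 12.4%. Each member therefore rests on few reads.

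Levels between genes are compared per kilobase of the longest annotated transcript. In the control library Gzma was highest at 18.1 reads per kilobase, with an interval of 10.7 to 28.6, followed by Ncr1 at 10.03 with 5.62 to 16.6. Nkg7 at 7.95, Prf1 at 4.04, Tbx21 at 2.81 and Klrb1c at 1.91 reads per kilobase followed. Neighbours in this order had overlapping intervals.

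In the CKO library Nkg7 was highest at 18.2 scaled reads per kilobase, with an interval of 11.6 to 27.0. Gzma at 9.37, Prf1 at 8.89 and Ncr1 at 7.14 came next and had overlapping intervals. Tbx21 at 3.48 and Klrb1c at 2.54 were the lowest, as they were in the control. The interval of Nkg7 overlapped those of Gzma and Prf1, so the order at the top was not resolved in either library.

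**Figure D2:**
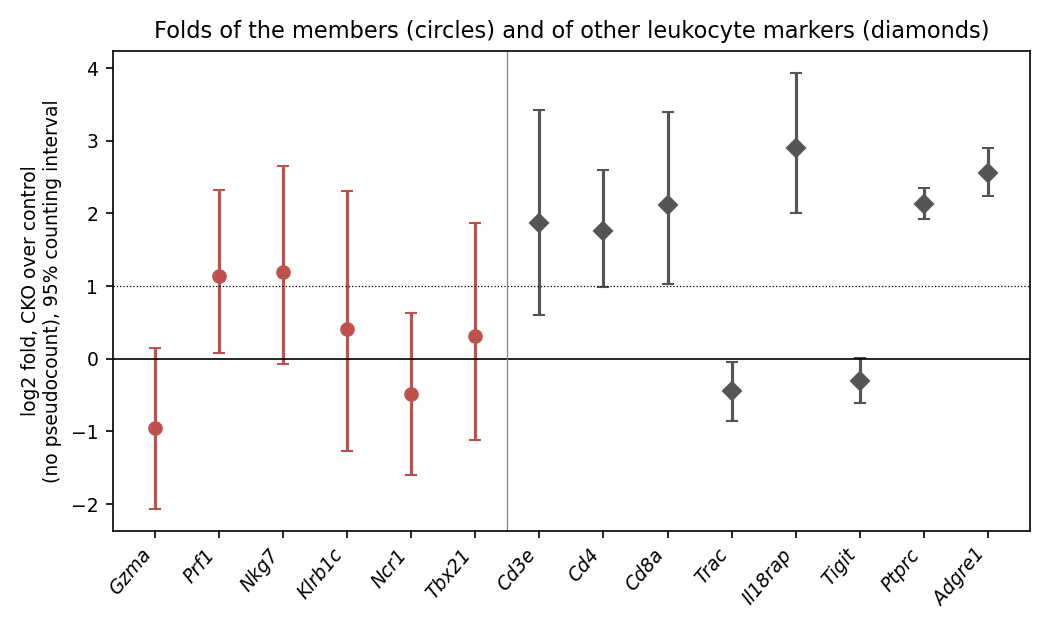
Log2 fold of CKO over control without a pseudocount, with 95% counting intervals, for the 6 members (red circles) and 8 markers of T cells, NK receptors, leukocytes and macrophages (grey diamonds), with a dotted line at 2-fold. Under this scaling Prf1 alone among the members has an interval above 0, joined by Nkg7 with library totals made equal. The intervals of Cd3e, Cd4, Cd8a, Il18rap, Ptprc and Adgre1 lie above 0. That of Trac lies below 0, at -0.85 to -0.039, and that of Tigit includes 0.

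Summed, the pan-leukocyte, T cell and macrophage markers differed more than the members did. The 10 pan-leukocyte genes had 1391 control reads and 8523 CKO reads, all 10 were at least 2-fold higher, and Arhgdib had the most reads over both libraries, which is what most reads means for each list below. Ptprc, the CD45 antigen of all leukocytes, had 209 and 1373 reads, with the log2 ratio at 2.13. The fold of the members' sum was 0.290 of the pan-leukocyte fold, with an interval of 0.209 to 0.404, a ratio that no scaling of the libraries enters. The part of leukocyte content in the members' values was not tested.

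Of 21 T cell genes, 18 had a row, with 331 control reads and 1337 CKO reads, and Thy1 had the most reads. There were 14 at least 2-fold higher and 0 lower, and the median log2 ratio was 1.71. The defining genes were Cd3e with 6 and 33 reads, Cd4 with 17 and 86, and Cd8a, carried by many cytotoxic T cells, with 8 and 52. The members' fold was 0.439 of the T cell fold, with an interval of 0.311 to 0.625. Thus the estimated fold of the members' sum was smaller than that of the T cell sum in these libraries. The members' sum mixes folds from 0.519 for Gzma to 2.29 for Nkg7, so it does not describe each member.

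The ratio of the members' fold to the T cell fold was computed again in alternatives chosen after seeing the data. No alternative left out a member. It was 0.335 without Trac, which had 99 and 109 reads and the lowest ratio of the list at -0.44, and 0.477 without Ccl5, which NK cells also express. With the values as deposited it was 0.650. Cd5 had the highest log2 ratio of the list, with 3 and 38 reads and a fold of 8.44 with an interval of 2.68 to 42.8. Prf1 and Nkg7 are also expressed by cytotoxic T cells, so their source cannot be told apart here.

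Other NK receptors were measured in 9 of 26 genes, with 238 control reads and 706 CKO reads. Of the 9, 6 were at least 2-fold higher and 0 lower, with a median log2 ratio of 1.95. Il18rap, the accessory chain of the interleukin-18 receptor, was highest with 11 and 123 reads and a log2 ratio of 2.79. Tigit, an inhibitory receptor with the most reads, had 160 and 195 and the lowest ratio at -0.30. The members' fold was 0.598 of the fold of these receptors, with an interval of 0.419 to 0.860. It was 0.271 without Tigit, an alternative added after the data were seen. T cells also carry several of these receptors.

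The adaptors through which such receptors signal were measured in 5 of 7 genes, and 4 were at least 2-fold higher. Tyrobp, an adaptor that myeloid cells also use, had 123 and 1307 reads and the highest ratio at 2.81, and Cd247, the zeta chain shared by NKp46 and the T cell receptor, was lowest with 11 and 32 reads at 0.90. The ligands of NK receptors were measured in 11 of 19 genes, with 5 at least 2-fold higher and 1 lower. Cd48 was highest at 2.90, Clec2h lowest at -1.46 with 1113 and 606 reads, and B2m, part of every MHC class I molecule, had the most reads, 6418 and 28598. Cd48 is also one of the pan-leukocyte genes.

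Around the granule members, 1 of 8 other granzymes had a row, Gzmm, with 10 and 19 reads and a log2 ratio of 0.31. Granule handling genes were measured in 10 of 11, with 5 at least 2-fold higher, 0 lower and a median of 0.96. Stx11, needed for granule fusion, was highest at 2.29 with 25 and 189 reads, and the lysosomal protein Lamp1, found in most cells, was lowest at -0.35 and had the most reads, 45474 and 53365. Most of these genes are also expressed outside lymphocytes.

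Killing through death ligands was measured in 6 of 7 genes, with 3 at least 2-fold higher and 0 lower. Ltb was highest at 1.95 with 29 and 172 reads, and Tnfsf10, the ligand TRAIL, was lowest at -0.45 and had the most reads, 2108 and 2318. Inhibitory checkpoint genes were measured in 5 of 6, and all 5 were at least 2-fold higher with a median of 2.24. Pdcd1 had 2 and 28 reads, Lag3 was lowest at 1.56, and Lilrb4a had the most reads, 69 and 494. The checkpoint list summed to 121 and 826 reads, and which cells they came from was not tested.

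Beside Tbx21, other lymphocyte transcription factors were measured in 15 of 16 genes, with 4 at least 2-fold higher, 0 lower and a median of 0.56. Runx3, which acts with T-bet in cytotoxic cells, was highest at 1.45 with 25 and 105 reads. Prdm1 was lowest at -0.83 with 118 and 99 reads, and Id2, which kidney cells also express, had the most with 6553 and 11753. Tbx21, at a log2 ratio of 0.27, lay below the median of this list.

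Genes of signals that act on cytotoxic cells, and of their receptors, were examined next. Lymphocyte attraction genes were measured in 13 of 14, with 8 at least 2-fold higher and a median of 1.66, from Ccl4 at 0.38 among those that passed the filter to Ccr2 at 3.51 with 110 and 1890 reads. Cxcl16 had the most reads, 1776 and 4833. Activating cytokines and their receptors were measured in 11 of 15, with 3 at least 2-fold higher and a median of 0.60, or 0.94 over those that passed the filter.

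Among these, Il18r1 was highest at 3.28 with 17 and 261 reads, Il15, a survival factor of NK cells, was lowest at -0.29 with 575 and 704, and Il15ra had the most reads, 618 and 952. Ifng itself was not analysed here. Genes of the interferon-gamma response were measured in 25 of 26, with 20 at least 2-fold higher and 0 lower and a median of 1.70. Gbp3 was highest at 2.97, Jak1 lowest at -0.00034, and Cd74 had the most reads, 2610 and 23956. Other interferons also induce many of these genes.

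**Figure D3:**
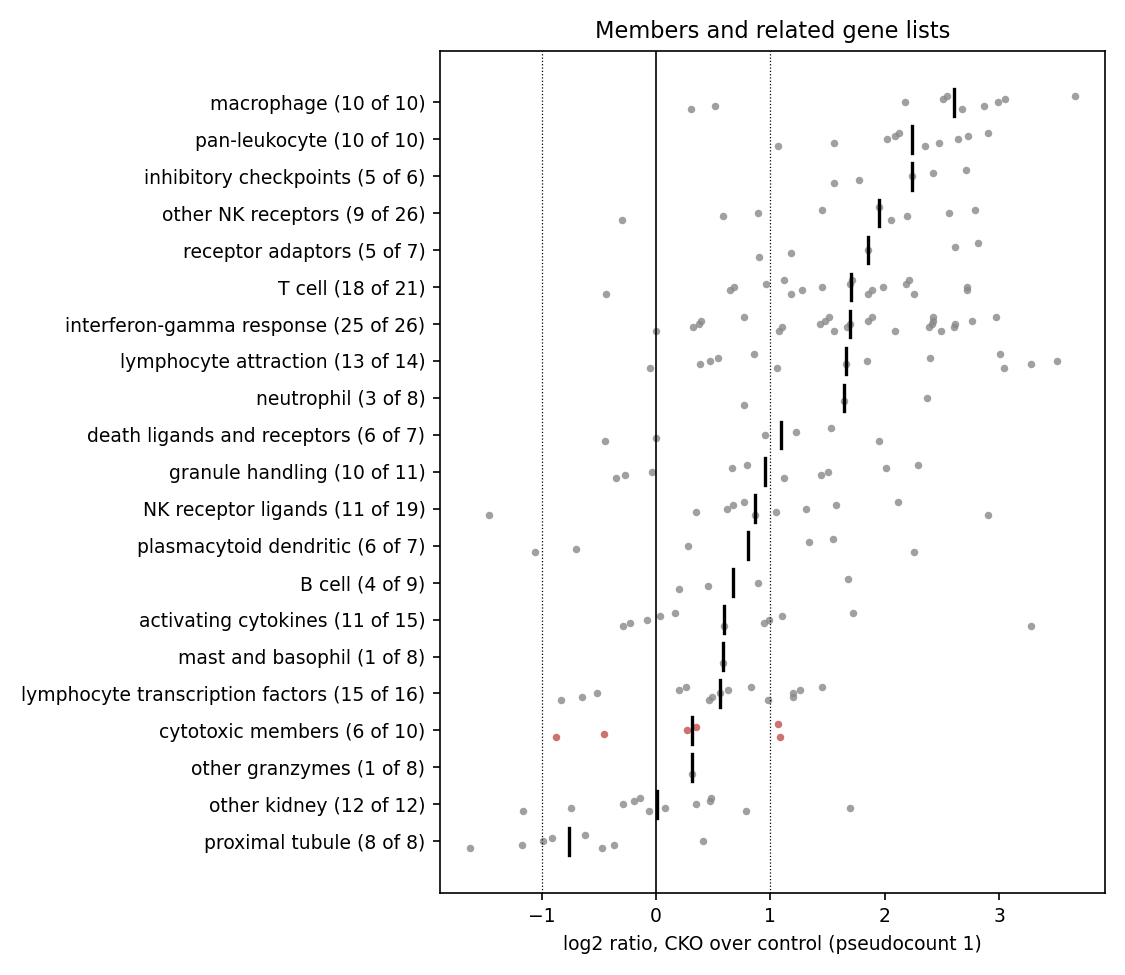
Log2 ratio of CKO over control with a pseudocount of 1 for each gene with a row (points) and the median (black bars), for the 6 members in red and 20 related lists in grey, with dotted lines at 2-fold. The members' median of 0.31 lies below those of the macrophage list at 2.61, the pan-leukocyte list at 2.24 and the T cell list at 1.71.

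The remaining cell types were described in the same way. Of the 10 macrophage genes, 8 were at least 2-fold higher, with 4192 and 26899 reads and a median of 2.61. Lyz2 was highest at 3.66 and had the most reads, and Adgre1 had 87 and 770 reads. The members' fold was 0.277 of the macrophage fold, with an interval of 0.200 to 0.385. The neutrophil list had a row for 3 of 8 genes, 42 and 260 reads, with 2 at least 2-fold higher, Csf3r at 2.37 with the most reads and S100a8 lowest at 0.77 with 7 and 19 reads.

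The B cell list had 4 of 9, 175 and 669 reads, with 1 at least 2-fold higher, from Cd79b at 0.21 to Ighm at 1.67, which had the most reads. Cpa3 had no row in the table used here. The mast and basophil list had 1 of 8, Kit, which kidney cells also express, with 325 and 732 reads at 0.58. The plasmacytoid dendritic list had 6 of 7, with 45732 and 44776 reads, nearly all from the tubular gene Klk1, 3 at least 2-fold higher and 1 lower, from Cox6a2 at -1.06 to Bst2 at 2.26, and Siglech had 13 and 60 reads.

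Kidney cell lists differed little or were lower. The 8 proximal tubule genes had 443340 and 369079 reads and a median of -0.76, with 0 at least 2-fold higher and 2 lower, from Slc22a6 at -1.62 to Slc5a12 at 0.41, and Slc34a1 had the most reads. The 12 other kidney genes had a median of 0.0059, with 1 at least 2-fold higher and 1 lower, from Pvalb at -1.17 to Acta2 at 1.70, with Umod highest in reads. Their summed fold was 1.24, with an interval of 1.23 to 1.25, beside the members' 1.18. That sum rests largely on Umod, which had 90047 and 187056 of its 149937 and 278620 reads. The members' fold was 2.13 of the proximal tubule fold, with an interval of 1.55 to 2.96.

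**Figure D4:**
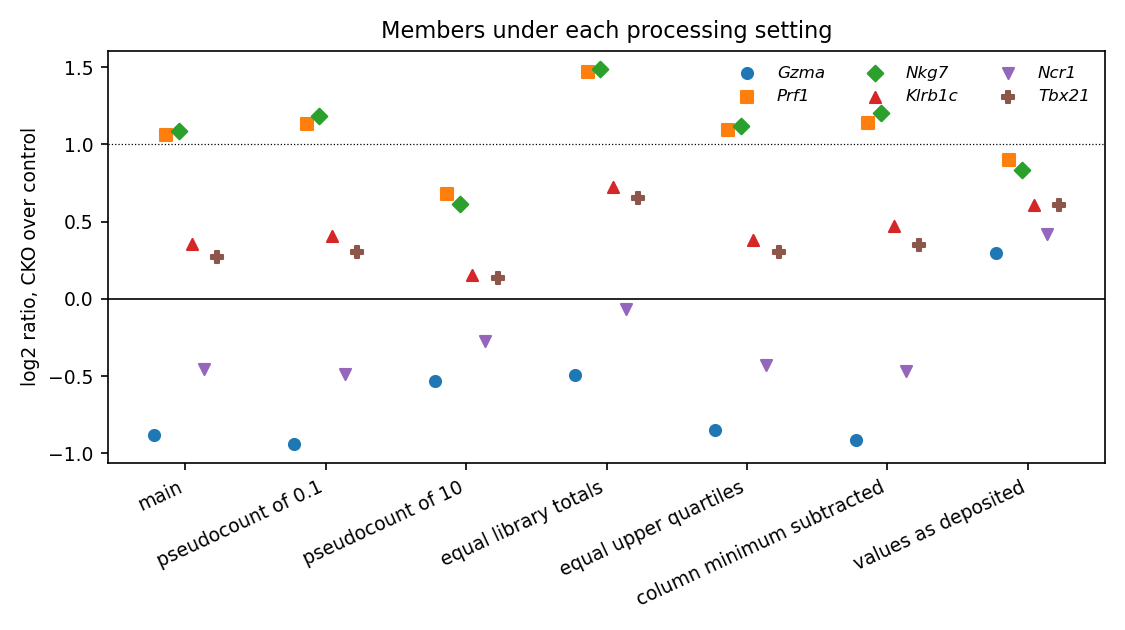
Log2 ratio of CKO over control for the 6 members under the main processing and 6 other settings, 1 symbol per gene, with a dotted line at 2-fold. Prf1 and Nkg7 are the highest under each setting, and Gzma and Ncr1 lie below 0 under each but the values as deposited, where they are at 0.29 and 0.42.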

How the data were processed

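Per the submitters' processing notes, the authors used STAR 2.7.3a, HTSeq, DESeq2, Cufflinks 2.2.1, FastQC and edgeR with build mm10, on stranded TruSeq mRNA libraries. The settings of HTSeq for strand and for multiply mapped reads are not given in the sources used here. The deposited numbers have no standard unit and are named a score here; the authors call them normalized counts. After the subtraction below they were handled as reads. The column minimum minus 1 was subtracted, which left at least 1 read for each gene. The CKO column was scaled by the median gene ratio. A fold interval is the 95% Clopper-Pearson interval of the CKO share of a gene's reads, a level has an exact Poisson interval, and a ratio of folds has an exact conditional interval of an odds ratio. All 3 cover counting error only. Transcript lengths came from GENCODE M21 on GRCm38, the same build as mm10.

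Named genes were every member, the highest and lowest log2 ratio that passed the filter and the gene with most reads of each of 20 other lists, and 11 defining markers. Some genes under this rule are not reported here. Ccl5 was named outside this rule, after its values were seen. The members and lists were chosen with earlier results of these data known. Alternatives were other pseudocounts, scalings, floors, filters and thresholds. The steps were tested on simulated data, and no result of that check is given here. It is not used as evidence for the members' values, which rest on few reads. Nor does it bear on the subtracted constants, which were inferred from the deposited values. Python 3.11.15, numpy 2.4.6, pandas 2.3.3, scipy 1.17.1 and matplotlib 3.10.9 were used.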

Additional observations from a re-analysis of the deposited data

How the results depend on the processing

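The count of 2 members at least 2-fold higher became 0 with a pseudocount of 10, 0 with the values as deposited and 0 at a 4-fold threshold. At least 50 scaled reads left no member. The members' median log2 ratio of 0.31 ranged from 0.14 with a pseudocount of 10 to 0.69 with equal totals. Of 36 member values under 6 settings, 35 stayed within their counting interval, and the exception was Gzma with the values as deposited.

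Over all genes, the counts at least 2-fold higher and lower were 3870 and 437 with equal totals, where the median of all genes was 0.44, and 3574 and 131 with the values as deposited, where it was 0.57. At least 50 reads gave 617 lower. The 1.5-fold threshold gave 3801 and 2423, and the 4-fold threshold 749 and 166. The share of calls that were higher was 71.4% in the main setting, 89.9% for equal totals and 96.5% for values as deposited.

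Of 159 medians of other lists, taken over the genes that pass each filter, 51 shifted by at least 0.25. By a wider measure adopted after that count was seen, the median bounds of the genes' counting intervals, 18 lay outside. Only the other kidney median changed sign, to -0.013 with the column minimum subtracted. Equal totals put it at 0.42 and the proximal tubule median, -0.76 in the main setting, at -0.35, and values as deposited put them at 0.59 and -0.18. The cause of these shifts was not tested. No paired analysis was possible because there was 1 library per group. No member had more than 43 reads over both libraries, which limits each value.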
